A study of Mus musculus with 44 samples.

Results

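Atf3, Sox11, Jun, Stat3, Klf6, Klf7, Cebpd and Myc are 8 transcription factors that have been tied to the regrowth programme of injured peripheral neurons. They were taken by gene symbol, and all 8 are among the 45882 genes of the tables that hold satellite glial cells (SGCs), which form a sheath around sensory neurons. Only 7 are among the 12170 genes of the neuron table, which has no row for Cebpd. The series holds 44 bulk RNA-seq libraries in 12 groups, all from C57BL/6 mice with no transgene or other genotype given. From naive mice aged 9 weeks came 4 libraries of sorted SGCs and 4 of whole dorsal root ganglia (DRGs), the ganglia that hold sensory neurons. SGCs were also sorted from mice aged 9 to 11 weeks after full ligation of the sciatic nerve or after a sham operation, with 4 libraries in each of the 4 groups of surgery and time (3 and 14 days). Neurons came from mice of the same ages 8 days after partial ligation of that nerve or after sham, with 3 libraries for each surgery and sex. A further 4 neuron libraries came from the ligated side and 4 from the opposite side of ligated mice, with no sex given. The column names of the neuron table read SNL, while the labels describe partial ligation of the sciatic nerve, and the labels were followed. The series' design text calls these cells nociceptors, and the labels call them neurons. No label says whether a library is 1 animal or a pool. The p-values therefore speak of the spread among these libraries, which may be technical. SGCs were stained and sorted after fixation with 4% paraformaldehyde, from ganglia L3 to L4. Neurons were enriched unfixed with magnetic beads from L3 to L5, and the naive ganglia were dissociated and fixed but not sorted.

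When an axon is cut or crushed, stress kinases such as DLK and JNK carry a signal back to the cell body, where Jun is phosphorylated and Atf3 is switched on. Atf3 and Jun are both bZIP factors that bind DNA in pairs at AP-1 and CRE sites, and Stat3 is activated by cytokines that act through the shared receptor subunit gp130. Sox11 is a SoxC factor of growing neurons, Klf6 and Klf7 are zinc-finger factors that favour axon growth, Cebpd is a C/EBP factor induced by cytokines, and Myc controls growth and biosynthesis. In SGCs, injury is best known for a rise in glial filament and gap junction genes, and Jun is best known in glia for its role in the repair state of Schwann cells. Several of these proteins, Stat3 and Jun above all, are controlled after translation, which RNA levels do not show.

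Promoter windows are shown for 4 factors, so that the letters before their starts can be compared. They are those with the largest differences after ligation in neurons. RefSeq (GRCm38.p6) gave windows for 6 of the 8 factors, and the table used held none for Cebpd or Myc. Each line has the 250 bases before the start site, 5′ to 3′ on the gene's own strand, and capitals mark matches on either strand to AP-1 (TGANTCA), CRE-like (TGACNTCA), STAT (TTCNNNGAA) and E-box (CACGTG) letters. The windows are chr1:191183334-191183583 (minus strand) for Atf3, chr12:27342719-27342968 (minus) for Sox11, chr4:95052223-95052472 (minus) for Jun and chr13:5861239-5861488 (plus) for Klf6. The Atf3 window lies inside the span of the gene given below (191170296 to 191218039), so it precedes an internal start site. Letters before the outermost Atf3 start were not read. The Klf7 window, not printed, also lies inside the span of its gene.
Atf3: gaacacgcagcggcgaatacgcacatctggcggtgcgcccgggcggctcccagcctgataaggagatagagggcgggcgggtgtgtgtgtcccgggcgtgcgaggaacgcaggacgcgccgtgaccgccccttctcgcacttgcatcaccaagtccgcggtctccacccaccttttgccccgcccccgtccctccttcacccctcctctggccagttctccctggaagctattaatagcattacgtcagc
Sox11: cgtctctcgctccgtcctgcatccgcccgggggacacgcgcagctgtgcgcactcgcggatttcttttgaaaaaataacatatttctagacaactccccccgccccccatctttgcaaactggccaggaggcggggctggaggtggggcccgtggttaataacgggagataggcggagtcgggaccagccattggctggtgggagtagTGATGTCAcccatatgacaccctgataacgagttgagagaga
Jun: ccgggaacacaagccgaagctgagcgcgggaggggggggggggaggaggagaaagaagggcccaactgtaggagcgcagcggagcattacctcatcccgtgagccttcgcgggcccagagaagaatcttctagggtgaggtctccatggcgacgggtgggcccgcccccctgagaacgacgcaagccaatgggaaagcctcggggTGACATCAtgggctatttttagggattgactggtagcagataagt
Klf6: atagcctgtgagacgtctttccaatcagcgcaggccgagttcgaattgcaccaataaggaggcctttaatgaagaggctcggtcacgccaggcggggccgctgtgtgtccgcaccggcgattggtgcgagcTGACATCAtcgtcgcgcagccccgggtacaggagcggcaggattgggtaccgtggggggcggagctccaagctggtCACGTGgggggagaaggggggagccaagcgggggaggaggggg
A CRE-like match was found in 3 of the 6 windows: at -42 to -35 from the start of Sox11, at -45 to -38 of Jun and at -119 to -112 of Klf6. Of all 32851 promoter windows of this length, 7.49% held one. The letters at the Jun and Klf6 sites are the same (TGACATCA), and those at Sox11 read TGATGTCA, a match on the other strand. Klf6 also held an E-box at -43 to -38, which 6.02% of all windows have. No AP-1 or STAT letters as spelled here occurred in the 6 windows, against 6.75% and 7.02% of all windows, and the Atf3 window held none of the capitalised motifs. Only exact letters were searched, and a near match such as TTACGTCA close to the end of the Atf3 window was not counted. A GC box (GGGCGG, left in lower case) was in all 6 windows and in 32.7% of all windows. The 6 windows were 58.0 to 65.2% G and C, where the median of all windows was 52.4%. The shares over all windows were not matched for this. A match describes the letters and not a bound site.

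Library quality was read from expression alone, because the files hold no counts and so no depth. Between 10225 and 13173 genes reached 1 FPKM (mapped fragments per kilobase of a gene's transcript, corrected for library size) in a library. All 10 SGC marker genes were detected in the sorted SGC libraries, with a summed level of 14140 to 22170 FPKM after surgery and the glial fatty acid binding protein Fabp7 and the lipoprotein Apoe leading. In the neuron libraries the 4 SGC markers that have a row summed to 38.9 to 80.4 FPKM, and the 11 neuron markers to 6813 to 10180 FPKM, so each cell type had its defining markers. Fabp7 and Apoe averaged under 10 FPKM in every neuron group. Neuron markers were not absent from sorted SGCs, at 176 to 780 FPKM after surgery, led by Stmn2, Uchl1 and Snap25. Myelin genes of Schwann cells summed to 727 to 2848 FPKM in the neuron libraries. Because each of the 3 tables has its own FPKM scaling, FPKM levels of the factors are compared across them only as ratios or ranks within a library. Sums of marker and stress genes are given on the scaling of each table and over the genes that it lists.

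The first question is which of the 8 factors differ in SGCs 3 days after ligation. Atf3 and Sox11 rose, to 10.2 and 13.6 times the sham mean, and the other 6 did not pass the test. Differences are given as log2 differences of FPKM + 1 ± SE from limma, and a gene is called when its Benjamini-Hochberg adjusted p over all genes tested is under 0.05. In this comparison 9 of 13924 genes were called (0.0646%), 6 of them higher (0.0431%) and 3 lower (0.0215%), and Atf3 and Sox11 are 2 of those 6. In bulk samples, fewer cells of a type and less RNA per cell cannot be told apart, so these are differences per library. Whether groups overlap is also given, but the share of all genes whose groups separate was not counted.

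Atf3 (ENSMUSG00000026628, chromosome 1, 191170296 to 191218039, minus strand) stood at 68.4, 47.7, 90.9 and 49.9 FPKM in the 4 ligated libraries and at 12.6, 1.48, 4.72 and 6.34 FPKM in the 4 sham libraries. Every ligated library lay above every sham library, the lowest ligated value being 47.7 against a highest sham value of 12.6. The difference was 3.36 ± 0.51 (limma adjusted p = 0.0331), and the ratio of the group means was 10.2. Sox11 (ENSMUSG00000063632, chromosome 12, 27334264 to 27342574, minus strand) stood at 14.0, 7.88, 26.7 and 18.0 FPKM after ligation and at 1.98, 0.194, 1.02 and 1.70 FPKM after sham. The groups again did not overlap, and sham levels were near the 1 FPKM used as pseudocount. Its difference was 2.95 ± 0.42 (limma adjusted p = 0.0331), which the pseudocount holds below the 13.6-fold ratio of the group means.

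These 2 calls sat close to the threshold. Leaving out 1 library at a time kept Atf3 under 0.05 only when sham replicate 1 was the one left out, with adjusted p between 0.0152 and 0.104 over the 8 fits and differences of 2.93 to 3.75. Sox11 lost its call without sham replicate 2 or 3 or ligated replicate 3 or 4, with adjusted p between 0.0186 and 0.0764 and differences of 2.68 to 3.25. Both calls were also lost with no filter on low values, when the fit held the 3-day libraries alone and with the replicate block. Atf3 lost its call with array weights too (limma adjusted p = 0.0608). Of the 6 other settings, 2 called Atf3 and 3 called Sox11. Adjusted p over them ran from 0.0248 to 0.181 for Atf3 and from 0.0219 to 0.17 for Sox11. Both were called in the authors' deposited table for this comparison, whose columns are those of a DESeq2 fit: they were listed at log2 folds of 3.23 ± 0.48 for Atf3 (adjusted p = 9.43e-08) and 3.74 ± 0.57 for Sox11 (adjusted p = 1.86e-07). That table calls 1.01% of its genes.

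Jun (ENSMUSG00000052684, chromosome 4, 95049034 to 95052222, minus strand), the usual partner of Atf3, was already high without injury. It stood at 56.3, 65.4, 97.9 and 37.0 FPKM after ligation and at 65.0, 43.8, 48.4 and 60.0 FPKM after sham, groups that overlap. Its difference was 0.17 ± 0.25 (95% confidence interval -0.37 to 0.71; limma adjusted p = 0.877). The interval ends well below the value for Atf3. Jun overlaps the antisense gene Junos, and counting by strand is not stated, so its reads could include those of Junos.

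Stat3 (ENSMUSG00000004040, chromosome 11, 100885098 to 100939540, minus strand) stood at 48.1, 106, 52.8 and 53.6 FPKM after ligation and at 72.7, 83.9, 76.9 and 38.4 FPKM after sham. One library in each group stood apart, ligated replicate 2 at the top and sham replicate 4 at the bottom, and the groups overlap. The difference was -0.08 ± 0.32 (adjusted p = 0.97). The authors' deposited table gives Stat3 a log2 fold of 0.32 ± 0.09 with an adjusted p of 0.0272, a call the FPKM values do not give. Stat3 shares exon sequence on the other strand with Stat5a, and whether the deposited counts and FPKM treat those reads alike was not tested.

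Among the growth-promoting Kruppel-like factors, Klf6 (ENSMUSG00000000078, chromosome 13, 5861482 to 5870394, plus strand) was at 41.6 ± 11.3 FPKM after ligation and 31.5 ± 6.55 after sham (SD, n = 4 each). Its difference was 0.38 ± 0.23 (limma adjusted p = 0.65), with 2 of the 4 ligated libraries above the highest sham library. Klf7 (ENSMUSG00000025959, chromosome 1, 64029447 to 64122282, minus strand) was at 39.8 ± 4.47 against 38.4 ± 6.16 FPKM, a difference of 0.06 ± 0.13 (adjusted p = 0.925). Klf7 had the narrowest interval of the 8, -0.23 to 0.34, so the data bound its change more tightly than that of any other factor here. Exons of Klf7 overlap those of the noncoding genes Gm26649 and Gm13748 on the other strand.

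Cebpd (ENSMUSG00000071637, chromosome 16, 15887286 to 15891031, plus strand) stood at 11.6, 31.4, 13.5 and 16.2 FPKM after ligation and at 11.3, 8.95, 8.61 and 11.8 after sham. Of the ligated libraries 3 lay above all sham libraries, replicate 2 far above. Its difference of 0.69 ± 0.29 had an unadjusted p of 0.0288 and an adjusted p of 0.49. Without that replicate the value was 0.40. Cebpd also overlaps an exon of Spidr on the other strand. Myc (ENSMUSG00000022346, chromosome 15, 61985391 to 61990374, plus strand) was the lowest of the factors after ligation and the most variable, at 0.634, 4.72, 12.0 and 7.04 FPKM after ligation and 6.13, 2.59, 1.62 and 1.09 after sham. Ligated replicate 1 was the lowest of all 8 libraries, and the difference was 0.70 ± 0.58 (adjusted p = 0.764). Without that replicate it was 1.29, and without ligated replicate 3 it was 0.29.

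**Figure D1:**
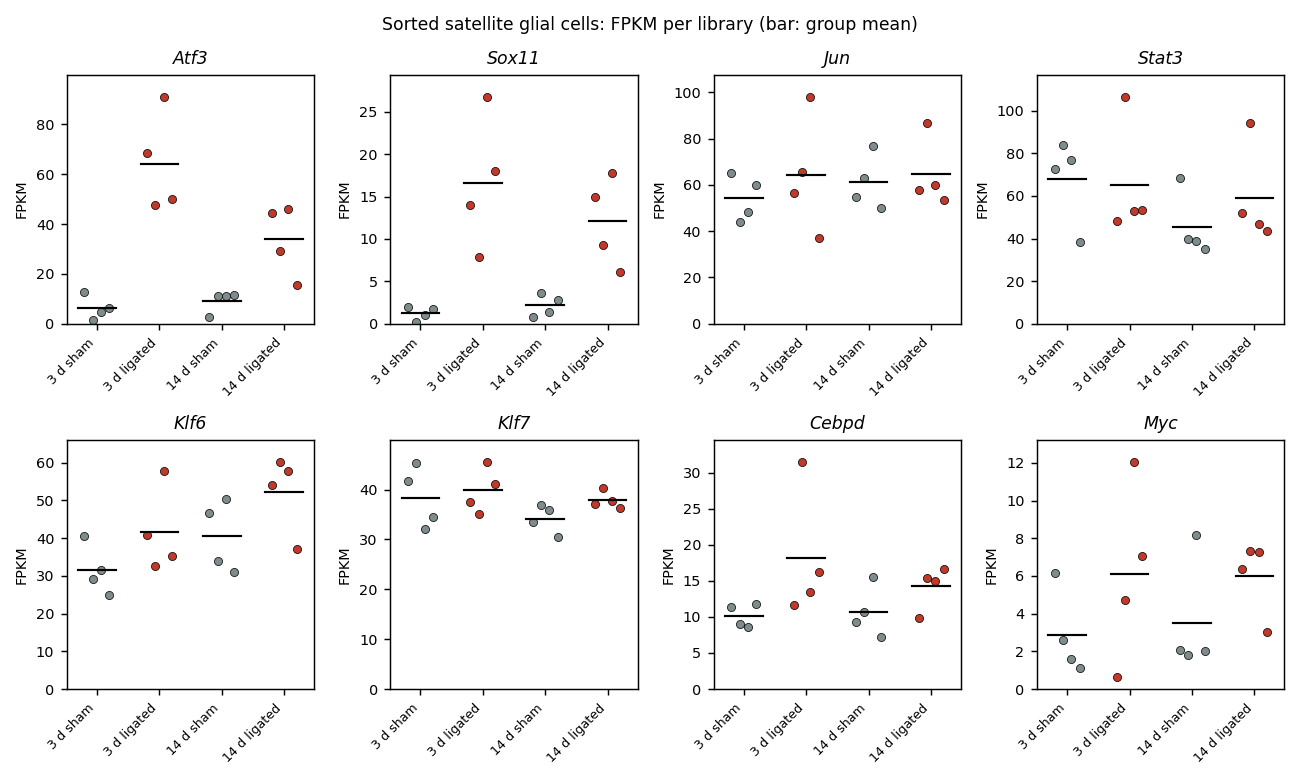
FPKM of the 8 factors in each sorted SGC library (points) by surgery and day, with group means as bars; each panel has its own axis from 0. Atf3 and Sox11 are the 2 panels in which all ligated libraries lie above all sham libraries of the same day, at 3 days (Atf3 47.7 to 90.9 against 1.48 to 12.6 FPKM) and at 14 days (15.5 to 46.1 against 2.74 to 11.6 FPKM). The share of all genes that separate in this way was not counted.

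By 14 days Atf3 and Sox11 were still above sham in all 4 ligated libraries, but neither passed the test. limma called 1 of 13924 genes (0.00718%), and none of the 8 factors. Of the 8, 2 had an unadjusted p under 0.05, where 718 of all 13924 genes did, and the authors' deposited table calls 3 of the 8. Atf3 was at 44.4, 29.3, 46.1 and 15.5 FPKM after ligation and at 2.74, 11.2, 11.1 and 11.6 after sham. Sham replicate 1 was far below the other sham libraries, and ligated replicate 4 was closest to sham. The difference was 1.81 ± 0.51 (unadjusted p = 0.00294, limma adjusted p = 0.561). Sox11 was at 15.0, 9.29, 17.8 and 6.14 FPKM against 0.849, 3.63, 1.35 and 2.80. Its difference was 2.04 ± 0.42 (unadjusted p = 0.000236, limma adjusted p = 0.276). All 3 factors called in the authors' deposited table were higher after ligation: Atf3 is at 1.84 ± 0.38 (adjusted p = 0.000844), Sox11 at 2.49 ± 0.42 (adjusted p = 3.23e-06) and Stat3 at 0.35 ± 0.09 (adjusted p = 0.0235), and 1.05% of its genes are called.

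The other 6 factors had differences between 0.07 (Jun) and 0.77 (Myc) at 14 days, none with an adjusted p under 1. Klf6 was at 52.2 ± 10.4 FPKM after ligation and 40.5 ± 9.46 after sham, and Klf7 at 37.9 ± 1.73 against 34.2 ± 2.88 (SD, n = 4 each). For both, 3 of the 4 ligated libraries lay above all sham libraries. Jun stood at 64.5 ± 15.1 against 61.1 ± 11.7 FPKM and Cebpd at 14.2 ± 2.97 against 10.6 ± 3.52. Stat3 was at 59.3 ± 23.7 against 45.6 ± 15.4 FPKM, with 1 high library in each group. All 8 differences were above 0, as were 47.8% over all genes, with a median of 0.39 where the median over all genes was -0.02. At 3 days 7 of 8 were above 0, against 48.6% over all genes, with a median of 0.53 where the median over all genes was -0.01.

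Whether the effect differed between the days was tested as the 14-day difference minus the 3-day difference. No factor was called, and Atf3 was the one with an unadjusted p under 0.05, as had 584 of all 13924 genes. Its value was -1.55 (95% interval -3.09 to -0.01; unadjusted p = 0.0489, limma adjusted p = 1), and 1 gene of 13924 (0.00718%) was called, higher at 14 days. Among ligated libraries, Atf3 was higher at 3 days (47.7 to 90.9 FPKM) than at 14 days (15.5 to 46.1 FPKM), and the ranges do not overlap. For Sox11 these ranges overlap, 7.88 to 26.7 against 6.14 to 17.8 FPKM, and the change was -0.91 (interval -2.19 to 0.37). The sham groups of the 2 days overlap for both genes.

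Because both genes are also neuronal, the neuron markers left in the sorted SGCs are given beside them. The 11 markers summed to 401 to 672 FPKM after ligation and 176 to 780 after sham at 3 days, and to 261 to 731 against 212 to 465 at 14 days. The medians were higher after ligation (592 against 386, and 678 against 380 FPKM), while the ranges overlap and no marker was called at either day. Over the 16 libraries the correlation of log2 neuron marker sum with log2(Atf3 + 1) was 0.526, with values of 0.617 in the 8 ligated and 0.057 in the 8 sham libraries. For Sox11 these were 0.518, 0.774 and -0.174. These are descriptions over libraries that share a preparation.

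Set against the neuron marker sum of the same library, Atf3 was higher in the ligated SGC libraries of day 3 than in any isolated neuron library. Per 1000 FPKM of neuron markers there were 75.9 to 135 FPKM of Atf3 in ligated SGCs at 3 days and 43.6 to 67.3 at 14 days. The 10 ligated neuron libraries had 6.12 to 59.6. The SGC libraries of day 14 overlap those neuron libraries. Without ligation the ratio in SGCs was 3.01 to 55.0 after sham and 20.5 to 40.0 in naive SGCs, against 0.339 to 3.59 in sham and opposite-side neurons and 2.79 to 6.83 in naive DRGs, so sham SGCs and sham neurons overlap. For Sox11 the values were 19.6 to 39.8 at 3 days and 13.8 to 26.0 at 14 days in SGCs, against 0.811 to 6.56 in ligated neurons, with no overlap at either day. Without ligation the Sox11 ratio was 0.395 to 13.2 in sham SGCs and 0 to 2.45 in naive SGCs. In sham and opposite-side neurons it was 0.389 to 1.18, and in naive DRGs 0.55 to 1.02. Some sham SGC libraries thus also lay above every ligated neuron library for Sox11. The SGCs were fixed and extracted with a kit for fixed tissue after full ligation, and the neurons were unfixed after partial ligation, so cell type, preparation, injury and day cannot be told apart in this contrast. The 10 macrophage markers summed to 10.04 to 30.6 FPKM after ligation against 1.94 to 11.1 after sham at 14 days, with none of the 4 tested called, and Csf1r was listed at 0 in 10 of the 16 libraries. The 9 endothelial and mural markers summed to 179 to 343 against 156 to 233 FPKM at 3 days, with none called. The part of neurons, macrophages and vessel cells in the results was not tested.

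**Figure D2:**
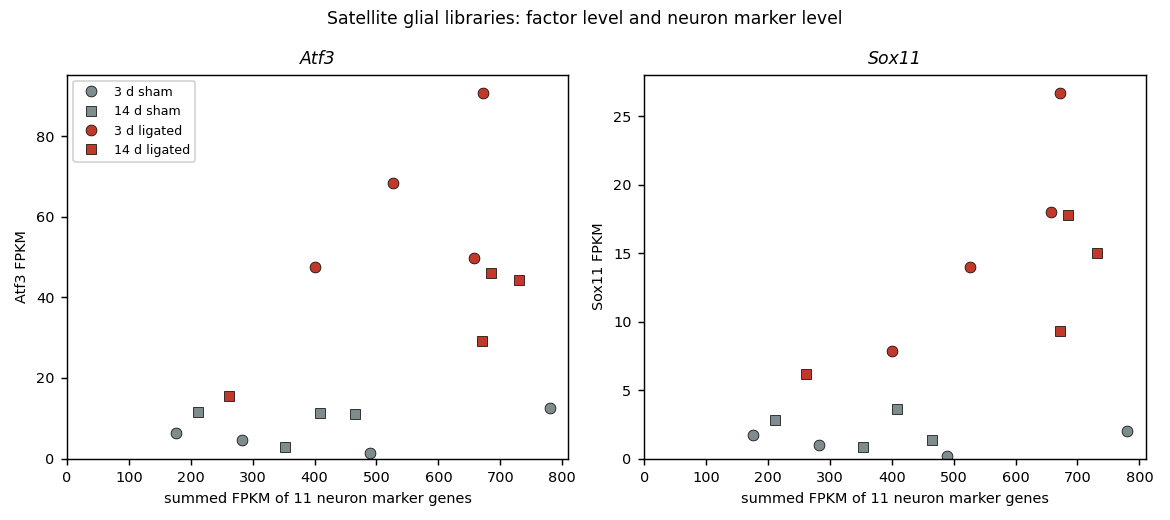
Atf3 (left) and Sox11 (right) FPKM on the vertical axis against the summed FPKM of 11 neuron marker genes in the same library, for the 16 sorted SGC libraries; grey is sham, red is ligated, circles are day 3 and squares day 14. Neuron marker sums ran from 176 to 780 FPKM in sham libraries and from 261 to 731 in ligated libraries. The part of neurons in the Atf3 and Sox11 values was not tested.

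In isolated neurons 8 days after partial ligation, Atf3 rose, and Sox11, Klf6 and Jun were higher without passing the test over both sexes. limma called 34 of 12145 genes (0.28%), all of them higher, and Atf3 was the factor among them. Atf3 ranged from 62.3 to 276 FPKM over the 6 ligated libraries, with a median of 118, and from 3.05 to 30.2 over the 6 sham libraries, with a median of 21.7. The groups did not overlap. The difference was 3.15 ± 0.47 (limma adjusted p = 0.00178), and it stayed called in each of the 12 fits without 1 library (2.84 to 3.56).

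Klf6 stood at 17.3 to 34.8 FPKM after ligation and at 11.4 to 15.9 after sham. All 6 ligated libraries lay above all 6 sham libraries, by a difference of 0.87 ± 0.21 (unadjusted p = 0.000503, limma adjusted p = 0.125). The share of all genes that separate in this way was not counted. Sox11 ranged from 8.25 to 37.2 FPKM after ligation and from 3.50 to 9.22 after sham. Of the ligated libraries 5 of 6 exceeded all sham libraries, and the difference was 1.47 ± 0.32 (limma adjusted p = 0.0636). It passed the threshold without the ligated male library at 8.25 FPKM of Sox11 (1.67, adjusted p = 0.0253) and without the ligated female library at 13.5 (1.63, adjusted p = 0.0414). Jun ranged from 2.99 to 41.6 FPKM after ligation and from 2.96 to 17.4 after sham, groups that overlap, with a difference of 0.94 ± 0.40 (unadjusted p = 0.0288, limma adjusted p = 0.999).

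The authors' deposited table for neurons does not name the groups, sexes or sides it compares, and its sign was set by matching it with ligated minus sham. It calls 1.70% of its genes, and Atf3, Sox11, Klf6 and Jun are among them. It gives log2 folds of 2.27 ± 0.26 for Atf3, 1.69 ± 0.21 for Sox11 and 0.99 ± 0.15 for Klf6, each with an adjusted p listed as 0. Jun is at 0.93 ± 0.24 (adjusted p = 0.00949) and Myc at 0.36 ± 0.16 (adjusted p = 0.339). For Cebpd, which has no FPKM row, that table lists a mean normalised count of 3.36 and no adjusted p. The authors' SGC tables list 399 and 373, and whether these counts are on the same scale was not tested.

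The 3 factors that stood highest in sham neurons did not pass the test. Klf7 was at 264 ± 48.5 FPKM after ligation and 271 ± 32.2 after sham (SD, n = 6 each), a difference of -0.05 ± 0.18 (interval -0.43 to 0.33; limma adjusted p = 0.999). Stat3 was at 107 ± 15.9 against 101 ± 10.3 FPKM, a difference of 0.08 ± 0.13 (interval -0.21 to 0.36). Myc was at 29.3 ± 4.68 against 26.7 ± 2.08 FPKM, a difference of 0.12 ± 0.25 (interval -0.40 to 0.64). These intervals bound a change in Klf7, Stat3 or Myc RNA at under 1 log2 unit in either direction.

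Males and females were also tested apart, on libraries shared with the pooled comparison. In females limma called 18 of 12145 genes (0.148%), Atf3 among them, with 104, 132 and 272 FPKM after ligation and 3.05, 6.00 and 28.4 after sham. Its difference was 4.05 ± 0.66 (limma adjusted p = 0.00708). The call was lost without the ligated library at 272 FPKM (adjusted p = 0.102) or without either of the sham libraries at 3.05 (0.0779) and 6.00 FPKM (0.0604), and also when the fit held only the groups compared (0.206). In males 1 gene was called (0.00823%) and none of the factors, with 2 of 7 at an unadjusted p under 0.05 (322 of all 12145 genes). Atf3 stood at 94.8, 62.3 and 276 FPKM in ligated males and at 18.5, 30.2 and 24.8 in sham males, groups that do not overlap (2.25 ± 0.66, adjusted p = 1). The female minus male difference in the effect was 1.81 (interval -0.15 to 3.77; unadjusted p = 0.0689, limma adjusted p = 1) for Atf3. No factor and no gene of 12145 was called for it (0%), although 130 genes had an unadjusted p under 0.05, none of the 7 factors among them.

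**Figure D3:**
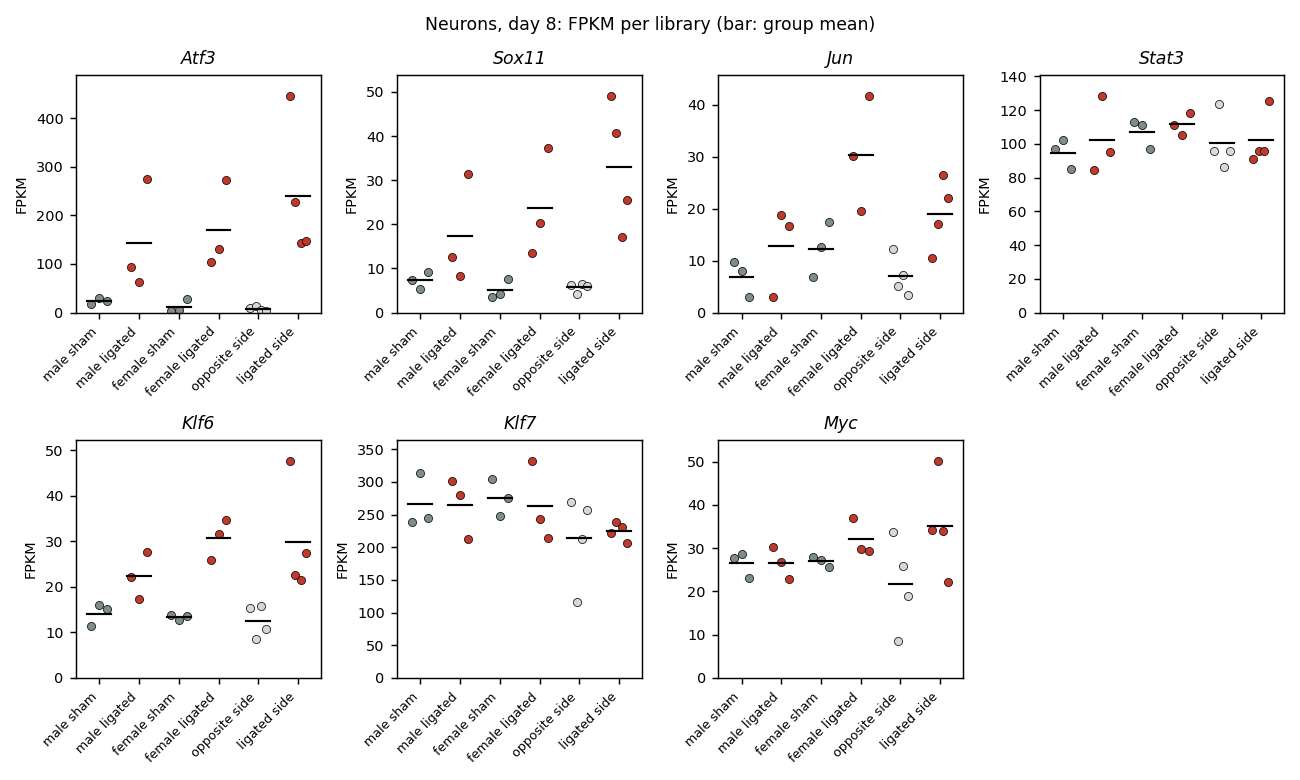
FPKM of the 7 factors listed for neurons in each library at day 8 (points) with group means as bars; grey is sham, light grey the opposite side, red ligated, and each panel has its own axis from 0. Atf3 and Klf6 are higher in all ligated libraries than in their controls in each of the 3 pairs of groups, while Klf7 and Stat3 overlap in all 3. The share of all genes that separate in this way was not counted.

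Against the opposite side of ligated mice, 3 of the 7 factors rose: Atf3, Sox11 and Klf6. This comparison uses other libraries than the one against sham. Both sides come from ligated mice and may share animals, which the fit does not take into account. Here limma called 81 of 12145 genes (0.667%), 80 of them higher (0.659%). Atf3 stood at 445, 227, 144 and 146 FPKM on the ligated side and at 9.93, 13.7, 4.30 and 3.09 on the opposite side. One ligated library was well above the other 3, and the groups were far apart. The difference was 4.81 ± 0.57 (limma adjusted p = 0.000103).

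Sox11 stood at 49.1, 40.7, 17.1 and 25.5 FPKM on the ligated side and at 6.31, 4.24, 6.54 and 6.10 on the opposite side, where the 4 libraries were close together. Its difference was 2.23 ± 0.40 (limma adjusted p = 0.00502), and Sox11 and Atf3 stayed called in all 8 fits without 1 library. Klf6 stood at 47.6, 22.6, 21.5 and 27.3 FPKM against 15.4, 8.55, 15.8 and 10.7. The groups did not overlap, and the difference was 1.14 ± 0.26 (limma adjusted p = 0.042). That call was lost in 4 of 8 fits without 1 library: without the ligated libraries at 47.6 or 27.3 FPKM (adjusted p = 0.16 and 0.0771) and without the opposite-side libraries at 8.55 or 10.7 FPKM (0.131 and 0.116). It was also lost under quantile normalization (adjusted p = 0.0656), with only the groups compared (0.394) and with array weights (0.0774), so it held in 2 of 5 other settings.

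Jun stood at 10.5, 17.1, 26.5 and 22.1 FPKM on the ligated side and at 12.3, 5.03, 7.26 and 3.34 on the opposite side. In 3 of 4 ligated libraries it exceeded all opposite-side libraries, with a difference of 1.38 ± 0.49 (unadjusted p = 0.0109, limma adjusted p = 0.302). The library with the most Atf3 (445 FPKM) was the one with the least Jun on the ligated side (10.5 FPKM). Myc stood at 34.1, 50.1, 33.9 and 22.3 FPKM against 33.8, 8.43, 25.8 and 19.0, with a difference of 0.76 ± 0.30 (adjusted p = 0.389). Without the opposite-side library at 8.43 FPKM it was 0.39. Klf7 (0.14 ± 0.22) and Stat3 (0.03 ± 0.16) overlapped between the sides. Of the 9 dissociation stress genes tested, 8 had differences above 0 (median 0.80), against 48.8% of all genes, and none was called. These stress genes summed to 128.8 to 202.6 FPKM on the ligated side and 110.0 to 130.9 on the opposite side. All 6 endothelial and mural markers tested had differences below 0 (median -0.51), none called, with sums of 55.1 to 79.0 against 75.3 to 158.3 FPKM. Against sham, 7 of the 9 stress genes were above 0 (median 0.41), against 43.1% of all genes, none called. The part of these genes in the Jun, Klf6 and other neuron values was not tested.

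**Figure D4:**
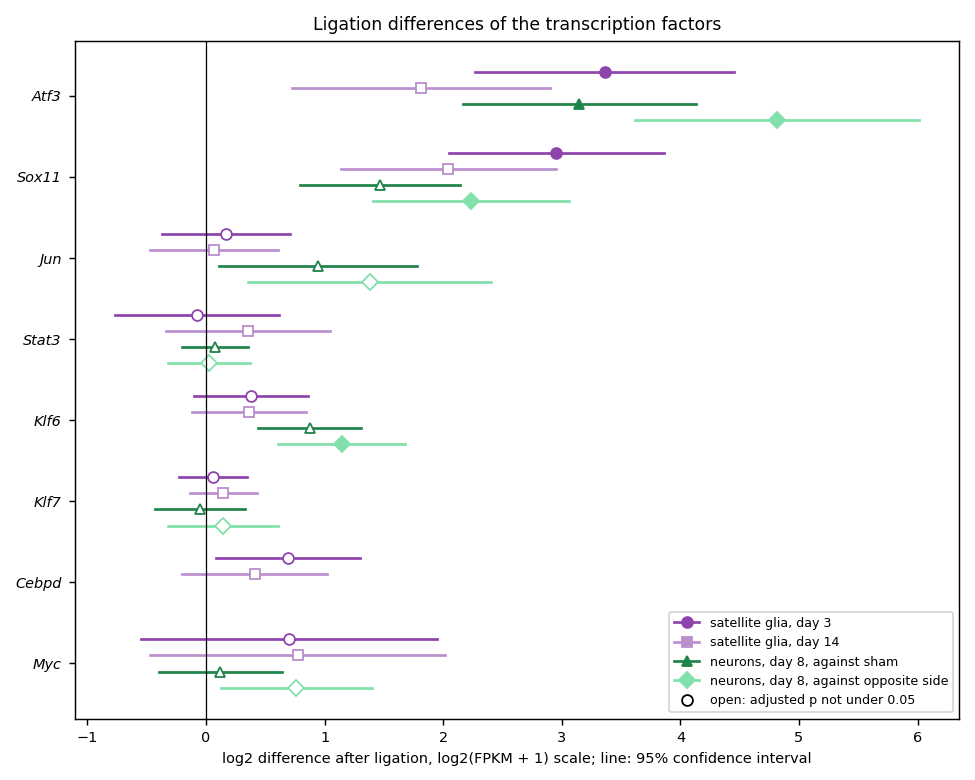
log2 differences (points) with 95% confidence intervals (lines) of the 8 factors in 4 comparisons, filled where the limma adjusted p is under 0.05; the axis is the log2(FPKM + 1) scale and Cebpd has no neuron value. Atf3 and Sox11 lie right of 0 in all 4 comparisons, Klf6 and Jun have intervals above 0 in neurons and intervals that include 0 in SGCs, and the intervals of Klf7 and Stat3 include 0 in all 4.

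Set side by side, ligated SGCs and ligated neurons shared the 2 factors with the largest differences, Atf3 and Sox11. The difference of Atf3 was 3.36 (interval 2.27 to 4.45) in SGCs at 3 days and 3.15 (2.17 to 4.13) in neurons against sham. For Klf6 it was 0.38 (-0.10 to 0.86) in SGCs and 0.87 (0.44 to 1.31) in neurons, and for Jun 0.17 (-0.37 to 0.71) and 0.94 (0.11 to 1.78). The SGC and neuron effects were not tested against each other, since their tables were scaled apart and ligation, day and preparation differ. So a factor called in one cell type and not in the other is not shown to differ between them.

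Ranks within a library are set side by side over the 12170 genes that all 3 tables list. These are the genes of the neuron table, where the other tables list 45882. Cebpd is not among them, and only 4 of the 10 SGC markers are. SGC ranks are thus places among genes listed for neurons, and the effect of that choice was not tested. Atf3 ranked at percentiles 90.3 to 94.5 in ligated SGCs at 3 days and 93.5 to 98.2 in neurons of the ligated side. Sham SGCs at 3 days ranked it at 26.1 to 71.1. Sox11 reached 60.4 to 83.8 in the same ligated SGCs and 64.5 to 83.5 on the ligated side in neurons. Jun ranked at 88.6 to 94.8 in ligated SGCs of day 3 and at 56.2 to 73.2 in neurons of the ligated side. Klf6 ranked at 86.6 to 91.7 and 69.3 to 83.1. By group medians, Myc and Klf7 ranked higher in neurons. The 12 dissociation stress genes summed to 591 to 1388 FPKM in SGCs after surgery and the 9 of them in the neuron table to 100.2 to 203 FPKM, on separate scalings. Cell type, preparation, injury and day cannot be told apart in these ranks.

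**Figure D5:**
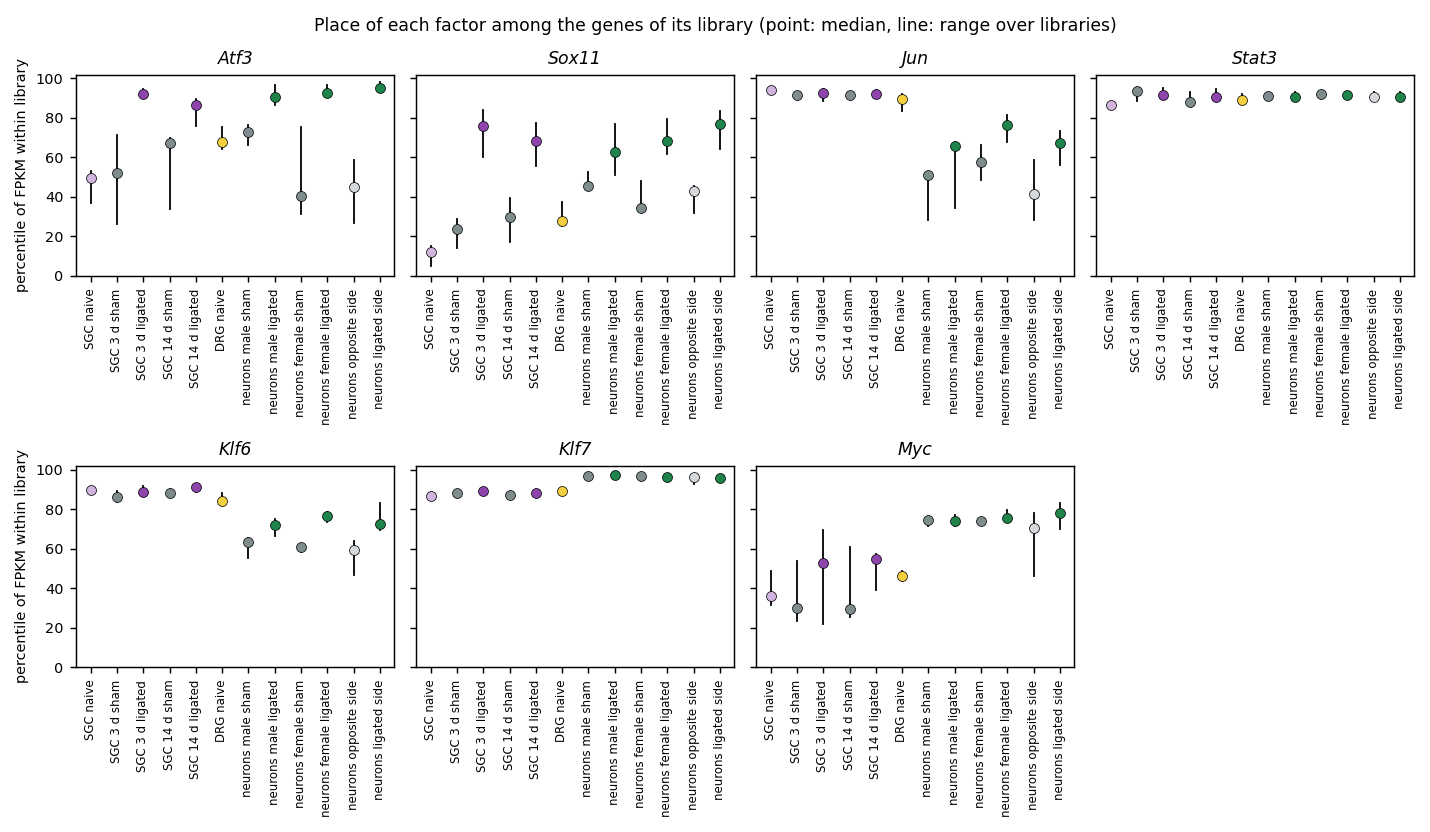
Percentile of FPKM of 7 factors among the 12170 genes listed in all 3 tables, within each library; points are group medians and lines the range over libraries, with SGC groups at left and neuron groups at right of naive DRGs. Atf3 and Sox11 climb after ligation in both cell types, Stat3 and Klf7 stay high in every group, and Jun and Klf6 rank higher in SGCs than in neurons. These 12170 genes are those of the neuron table, so SGC percentiles leave out genes with no neuron row.

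Ratios between factors of 1 library need no scaling between libraries. In ligated SGCs at 3 days Jun was 0.742 to 1.37 times Atf3, and at 14 days 1.30 to 3.46 times. In the 10 ligated neuron libraries Jun was 0.0235 to 0.301 times Atf3, below every SGC library. Klf6 was 0.646 to 1.53 times Klf7 over the 16 SGC libraries after surgery and 0.0415 to 0.215 times over the 20 neuron libraries. The ratio of Atf3 to Sox11 was 2.76 to 6.05 and 2.53 to 3.15 in ligated SGCs at 3 and 14 days and 5.57 to 9.08 in ligated neurons.

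The order of group means ran Jun, Stat3, Klf6, Klf7 at the top in SGCs at 14 days whether ligated or sham, with Atf3 after Klf7 when ligated and after Cebpd when sham. At 3 days after ligation Atf3 (64.2 FPKM), Jun (64.2) and Stat3 (65.2) stood level. In sham and opposite-side neurons the order began with Klf7, Stat3 and Myc. In ligated males and females Atf3 moved to the second place behind Klf7, and on the ligated side it was first, at 241 ± 142 FPKM against 225 ± 13.8 for Klf7 (SD, n = 4 each), a gap within the spread of Atf3.

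The comparison of naive SGCs with the whole ganglion gives levels of the factors before injury. The SGCs were sorted, while the ganglia were not and hold SGCs too, so cell type and sorting cannot be told apart. Jun and Cebpd were higher in sorted SGCs, and Atf3, Sox11, Stat3, Klf7 and Myc were higher in the ganglion. limma called 5789 of 12907 genes (44.9%), 2184 of them higher in SGCs (16.9%) and 3605 lower (27.9%), so the 7 of 8 factors called stand against a high background. The median over all genes was -0.12 here, and quantile normalization moved it to 0.16 with 3701 higher and 2691 lower calls. No factor changed direction under that scaling, but Myc lost its call (adjusted p = 0.0545) and Klf6 gained one (0.0146).

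Cebpd stood at 12.1, 11.6, 7.93 and 13.0 FPKM in naive SGCs and at 4.88, 2.48, 5.22 and 4.94 in DRGs, groups that do not overlap, with a difference of 1.19 ± 0.23 (limma adjusted p = 0.0033). Jun stood at 93.6, 83.3, 64.0 and 86.0 FPKM in SGCs and at 53.6, 31.4, 52.9 and 69.6 in DRGs. The groups overlap by 1 library, and the difference was 0.69 ± 0.24 (limma adjusted p = 0.0438). That call held in 2 of the 8 fits without 1 library, those without SGC replicate 3 and without DRG replicate 4, and adjusted p ranged from 0.0204 to 0.0926. It was also lost with no filter on low values (0.0808), array weights (0.0741) and the replicate block (0.0531), and so held in 2 of 5 other settings. Genes of dissociation stress, which include the Jun partners Fos and Junb, summed to 1142 to 1234 FPKM in SGCs and 627 to 929 in DRGs, and their part in the Jun difference was not tested.

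Sox11 was listed at 0.00463, 0.272, 0.447 and 0 FPKM in naive SGCs and at 2.41, 3.98, 2.64 and 2.55 in DRGs, a difference of -1.72 ± 0.20 (limma adjusted p = 0.000191). Atf3 stood at 2.53, 5.85, 4.93 and 4.42 FPKM in SGCs and at 12.3, 13.7, 10.6 and 17.2 in DRGs (-1.43 ± 0.23, limma adjusted p = 0.00126). Both were thus lower in sorted naive SGCs than in the unsorted whole ganglion. Klf7 was at 31.5 ± 2.32 FPKM in SGCs and 50.0 ± 5.33 in DRGs, Stat3 at 32.4 ± 3.90 against 55.4 ± 13.2 and Myc at 2.94 ± 1.30 against 5.51 ± 0.49 (SD, n = 4 each). None of these 3 overlapped, with differences of -0.65, -0.74 and -0.77 (limma adjusted p = 0.00272, 0.00877 and 0.0204). The call for Myc was lost without DRG replicate 1 (adjusted p = 0.0519) or 2 (0.0591). Klf6 was not called (0.36 ± 0.14, adjusted p = 0.0711) but passed without SGC replicate 1 (0.0472) or DRG replicate 4 (0.0247).

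Relatives and partners of the factors were read from 7 further lists, and none of their genes was called in SGCs at either day or in neurons in either comparison. The shares called over all genes were 0.0646% and 0.00718% in SGCs at 3 and 14 days and 0.28% and 0.667% in neurons against sham and the opposite side, so counts of 0 are near the background. At 3 days in SGCs, 0 of 14 tested AP-1 and ATF/CREB relatives were called, with Atf7 at 0.97 and Atf4, the stress-response factor, at 0.68 as the largest differences (limma adjusted p = 0.702 and 0.428). Of 9 other regeneration regulators, Smad1, the effector of BMP signals, came nearest at 0.97 ± 0.17 (limma adjusted p = 0.0578). In the gp130 list, Osmr, the receptor for oncostatin M, had 0.68 at 3 days and 1.07 at 14 days (adjusted p = 0.504 and 0.513) in SGCs. Socs3, the feedback inhibitor of Stat3, had 1.08 in neurons against sham and 1.52 against the opposite side (adjusted p = 0.999 and 0.289). The DLK and JNK kinases had 0 of 8 called in SGCs and 0 of 10 in neurons, with 6 of 8 lower in naive SGCs than in DRGs, led by Mapk10 (JNK3) at -2.92 (adjusted p = 6.21e-05), where 27.9% of all genes were lower.

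Effector genes of the regeneration programme were called in sorted SGC libraries and in neuron libraries. Their list was chosen with earlier results of these data known, so the counts below are no independent evidence. At 3 days in SGCs 3 of 21 tested rose (median over the list 1.45, over all genes -0.01), namely the neuropeptide galanin Gal by 5.19, the stathmin Stmn4 by 2.85 and the adhesion protein Flrt3 by 1.55 (limma adjusted p = 0.0333, 0.0457 and 0.0331). Over all genes 0.0431% were called higher there. These 3 calls were lost with no filter on low values and with the replicate block, under which no gene at all was called higher, and with only the groups compared 1 gene was. At 14 days none of 21 was called, and 13 had an unadjusted p under 0.05, where 718 of all 13924 genes did. The median was 1.16, with Gal at 4.37 and the neuropeptide Npy at 4.12 (limma adjusted p = 0.2 and 0.409). In neurons 11 of 20 rose against sham (0.28% of all genes; median 1.53), led by Sprr1a at 5.63, Npy at 5.16, Anxa1 at 3.66 and Gal at 3.19 (limma adjusted p = 0.000117, 1.14e-05, 0.00111 and 0.000162). Against the opposite side 14 of 20 rose (0.659% of all genes; median 2.01), led by Sprr1a at 9.56 (limma adjusted p = 1.04e-06). Several of these genes, Gal and Npy among them, are known as products of injured neurons, and the neuron marker sums given above apply to their SGC values too.

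Across the 16 SGC libraries after surgery, the genes whose log2 level followed Atf3 most closely were the DNA-damage gene Gadd45a (Pearson r = 0.967), Sox11 (0.959), the kinesin Kif22 (0.946), Smad1 (0.924) and Gal (0.92), out of 13924 genes. The other factors followed less closely, with r of 0.53 for Cebpd, 0.509 for Klf6, 0.482 for Myc, 0.356 for Jun, 0.278 for Klf7 and -0.077 for Stat3. Across the 20 neuron libraries the closest were Tgfbi (0.964), Sprr1a (0.956), Ecel1 (0.951), Anxa1 (0.949) and Cckbr (0.938), with Sox11 at 0.915 and Klf6 at 0.856. Jun stood at 0.569, Myc at 0.382, Stat3 at 0.033 and Klf7 at -0.058. These values describe libraries that share surgery groups.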

How the data were processed

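Bulk RNA-seq libraries of sorted satellite glial cells (SGCs), neurons and naive ganglia, 44 in all, were read from 3 gene tables. Values are in FPKM as deposited, per the file headers; the naive table writes them with decimal commas, which were read as decimal points. The submitters' processing notes name STAR, SAMtools, Cufflinks, DESeq2 and mm10, with no versions or roles. The authors' deposited comparison tables list log2 fold changes, p-values and a mean normalised count, a signal over all samples; genes called there have the opposite sign to ligated minus sham in 121 of 122, 152 of 153 and 223 of 223 genes also tested here, so their signs were turned. No table gives depth.

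A gene was tested where 4 libraries (3 for neurons, the size of the smallest group) reached 1 FPKM. Tests ran on log2(FPKM + 1) with limma 3.58.1 (R 4.3.3; empirical Bayes with a trend, two-sided), all groups of a table in 1 fit, with Benjamini-Hochberg adjustment over all genes and calls under 0.05. The fit was tested on simulated data: of 100 genes given a log2 change of 1, 26 were recovered for SGCs at 3 days and 39 for neurons against sham, and of 100 given 3, 96 and 100. Groups came from the labels. Python 3.11.15 with pandas 2.3.3 made the summaries. Alternatives were another pseudocount, no filter, quantile normalization, only the groups compared, array weights, a replicate block and leaving out each library.

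The 8 factors, the gene lists and the tests were chosen with earlier results of these data known. Named were the 8 factors in every comparison; of each pathway list, up to 4 called genes per direction, or the 2 largest differences where none was called; of each marker list, up to 3 genes of highest mean; and the 5 genes whose level was most like that of Atf3.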

Additional observations from a re-analysis of the deposited data

Results flagged for a closer look

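Of 62 groups of 4 libraries of 1 factor, 9 held a library far from the others by Dixon's criterion (gap over range above 0.829), which chance alone gives in about 1 in 20 groups. Stat3 gave 5 of them. It stood at 38.23 FPKM in naive SGC replicate 2 (others 30.22 to 30.55), at 68.54 in 14-day sham replicate 1 (34.97 to 39.88), at 106.4 in 3-day ligated replicate 2 (48.09 to 53.59), at 94.37 in 14-day ligated replicate 2 (43.71 to 52.14), and at 125.6 in 1 neuron library of the ligated side (90.84 to 95.86).

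Atf3 was low in 14-day sham replicate 1, at 2.745 FPKM where the other sham libraries had 11.13 to 11.64. Myc was high in 14-day sham replicate 3, at 8.201 FPKM against 1.784 to 2.057, and neutrophil and lymphocyte markers summed to 140.1 FPKM in the same library. Naive DRG replicate 2 stood apart for 2 factors, with Sox11 at 3.976 FPKM (others 2.415 to 2.637) and Cebpd at 2.476 (others 4.884 to 5.219).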

How the results depend on the processing

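Of 351 single-factor values under other settings, 325 kept their direction and side of the threshold, 15 lost a call, 6 gained a call and 5 reversed. Factors not called in the main fit count as kept when they stay uncalled, so 325 is not the share of calls that held. Of 628 such values without 1 library, 552 were kept, 26 lost a call, 4 gained a call and 46 reversed. Genes called in SGCs at 3 days went from 9 to 14 with a pseudocount of 0.1, 1 with no filter, 4 with only the groups compared, 5 with array weights and 1 with the replicate block; quantile normalization gave 7 higher and 1 lower against 6 and 3. Factors called went from 2 to 0 with no filter, only the groups compared or the replicate block, and to 1 with array weights. At 14 days 1 gene became 2 with only the groups compared, 10 with array weights (1 factor, Sox11) and 0 with the block; for the difference between days 1 became 0 with the block. In neurons of both sexes 2 factors were called under quantile normalization (with Sox11) and array weights (with Klf6). In males 1 gene became 0 with a pseudocount of 0.1 or only the groups compared and 2 under quantile normalization. In females 18 became 5 (0 factors) with only the groups compared and 35 (2 factors) with array weights; against the opposite side 81 became 30 with only the groups compared. Reversed were, with array weights, Klf7 (-0.03) and Myc (-0.24) for the difference between days, Klf7 in males (0.07) and against the opposite side (-0.088), and Stat3 against the opposite side under quantile normalization (-0.005). The cause was not tested.

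Without 1 library, genes called ran from 1 to 6 (factors 0 to 2) at 3 days, 1 to 2 at 14 days, 1 to 4 between days, 21 to 39 (1 to 2) in both sexes, 0 to 4 in males, 7 to 18 (0 to 1) in females, 0 to 1 between sexes, 62 to 119 (2 to 3) against the opposite side and 4594 to 5909 (5 to 8) in naive samples. Values of no called factor that changed sign ran, at 3 days, from -0.058 to 0.402 for Jun, -0.021 to 0.141 for Klf7 and -0.336 to 0.042 for Stat3, and at 14 days from -0.079 to 0.185 for Jun. Between days they ran from -0.33 to 0.13 for Jun, -0.14 to 0.15 for Klf6, -0.446 to 0.006 for Cebpd and -0.52 to 0.48 for Myc. In both sexes they ran from -0.138 to 0.026 for Klf7 and -0.01 to 0.14 for Stat3, in males from -0.112 to 0.14, -0.079 to 0.22 and (Myc) -0.09 to 0.10, and in females from -0.267 to 0.048 and -0.011 to 0.101. Between sexes they ran from -0.11 to 1.07 for Jun, -0.257 to 0.058 for Klf7 and -0.16 to 0.14 for Stat3, and against the opposite side from -0.13 to 0.27 for Klf7 and -0.078 to 0.128 for Stat3.

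Pairing by replicate number was not detected: same-numbered libraries correlated over 0.1 in 1 of 12 pairs (-0.08 to 0.19). Low correlations cannot exclude shared animals or batches. No paired analysis was possible for neurons because their columns carry no replicate numbers. FPKM without counts gives no depth, so low values such as Sox11 in sham SGCs have no counting error.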
